A study of Mus musculus with 16 samples.

Results

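Immediate early genes are switched on within minutes of a stimulus, without new protein synthesis. The 10 genes described here were Fos, Fosb, Jun, Junb, Egr1, Atf3, Ier2, Nr4a1, Zfp36 and Dusp1. All probe sets whose single gene symbol in the platform annotation was one of these names were taken, which gave 15 probe sets of the 10 genes, among 8252 genes with a probe set of 1 symbol. A test across the array used the 7453 probe sets with a mean signal at or above the 40th percentile, and 11 of the 15 passed this filter. They covered all 10 genes, with 2 probe sets for Junb, called Junb-r and Junb-i here after the letter in their names. The other 4, 1 each of Fos and Egr1 and 2 of Atf3, had mean signals of 44.5, 33.2, 51.2 and 10.4, under the filter's 127.47, and were not tested.

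The arrays measured messenger RNA in retroperitoneal fat, a depot behind the abdominal cavity, of mice of both sexes. Every mouse had been gonadectomised, the controls included. Treated mice received 0.1 mg of dihydrotestosterone (DHT), the androgen that binds the androgen receptor without conversion to oestrogen, under the skin at 1, 3, 6, 12, 18 or 24 h before necropsy. Control mice received the vehicle. Each sex had 1 array per DHT time and 2 vehicle arrays, 16 in all. The vehicle samples carry a time of 24 h in their labels and no vehicle group was matched to the other times, so that the 1 h mice and the vehicle mice were not shown to share the interval from injection to necropsy. Because the fat of a whole group was collected together, the RNA on an array may be a pool of several mice. Whether a sex's vehicle arrays are different animals or repeats of 1 extract is not stated, so the spread between them may be technical. The p-values of the main fits below rest on this spread. For the larger part they rest on how far the sexes disagree in their change at the same time. Strain and age were not in the labels used here.

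The second male vehicle array stood apart. It correlated with the remaining 15 arrays at 0.597 to 0.699, and those arrays among themselves at 0.872 to 0.976 (log2 signals of all tested probe sets). The summed signal of 19 skeletal muscle genes was 372560.0 there, against 42155 to 73228 on the other 7 male arrays, and 18 of the 19 were highest on it. Of 13 macrophage genes 13 were lowest on it, as were 9 of 10 adipocyte genes. Adipoq, which encodes the fat cell hormone adiponectin, had a signal of 1946 on this array and averaged 25923 on the other males. Fat markers were therefore present on every array, with the muscle-rich array the lowest. The main results below are given with 16 arrays and again with 15, without it.

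Fos, Fosb, Jun and Junb encode basic leucine zipper proteins that pair to form the transcription factor AP-1. Atf3 is a related leucine zipper protein induced by stress, Egr1 a zinc finger transcription factor, Nr4a1 an orphan nuclear receptor and Ier2 a nuclear protein of the early response. Zfp36 (tristetraprolin) and Dusp1 act as brakes: Zfp36 binds AU-rich messages and speeds their decay, and Dusp1 removes phosphate from mitogen-activated protein kinases. In fat, as in other tissues, they are known to answer growth factors, hormones and stress signals.

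The promoters of the genes on which the results below turn are shown first. They were read from RefSeq (mouse assembly GRCm38.p6), which held a promoter for 8 of the 10 genes; Ier2 and Egr1 were not matched. Each is the 250 bases before the transcription start, 5′ to 3′ on the gene's strand, and capitals mark TGACG, the core of the cAMP response element, or its reverse complement CGTCA (in Dusp1 also the full element). The window of Fos was chr12:85473640-85473889 on the plus strand, that of Atf3 chr1:191183334-191183583, that of Junb chr8:84978749-84978998 and that of Dusp1 chr17:26508473-26508722, the last 3 on the minus strand.
Fos: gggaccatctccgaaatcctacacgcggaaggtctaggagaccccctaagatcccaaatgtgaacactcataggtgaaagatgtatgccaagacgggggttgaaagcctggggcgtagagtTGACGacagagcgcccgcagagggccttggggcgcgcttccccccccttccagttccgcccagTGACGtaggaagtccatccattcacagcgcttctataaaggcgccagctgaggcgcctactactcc
Atf3: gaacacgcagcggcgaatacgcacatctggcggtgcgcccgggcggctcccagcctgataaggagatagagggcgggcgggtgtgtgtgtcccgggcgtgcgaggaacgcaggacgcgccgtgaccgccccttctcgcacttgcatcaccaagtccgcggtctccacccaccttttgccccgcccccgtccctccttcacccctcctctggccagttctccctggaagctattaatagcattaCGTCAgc
Junb: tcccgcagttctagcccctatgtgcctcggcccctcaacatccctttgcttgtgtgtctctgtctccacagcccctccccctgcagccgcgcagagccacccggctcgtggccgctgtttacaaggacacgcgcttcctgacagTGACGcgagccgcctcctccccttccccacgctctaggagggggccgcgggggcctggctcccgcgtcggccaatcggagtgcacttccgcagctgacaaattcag
Dusp1: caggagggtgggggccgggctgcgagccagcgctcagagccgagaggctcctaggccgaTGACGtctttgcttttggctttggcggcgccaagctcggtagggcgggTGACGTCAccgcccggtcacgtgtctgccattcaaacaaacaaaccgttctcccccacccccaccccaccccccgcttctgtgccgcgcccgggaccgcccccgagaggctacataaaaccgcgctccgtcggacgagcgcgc
The core was in 6 of the 8 promoters (Fos, Fosb, Junb, Atf3, Nr4a1 and Dusp1) and in 17.8% of 32851 mouse promoters of the same length. In Fos it began 129 and 66 bases before the start, in Junb 106 and in Atf3 7. The full palindrome TGACGTCA was in Dusp1 alone, 143 bases before the start, and in 1.55% of all promoters, and is counted among the cores too. The Sp1 box GGGCGG was in 7 of the 8 (all but Junb) and in 32.7% of all, and can overlap the Egr site GCGGGGGCG, which Fosb, Nr4a1 and Zfp36 held along with 2.57% of all. The CArG box, the core of the serum response element, was in Zfp36 alone, 58 bases before the start, and in 1.47% of all. Neither the AP-1 site TGANTCA (6.75% of all) nor the steroid receptor palindrome (0.00913% of all) was found in these 8 windows. Both strands were searched, and a match is a run of letters, not a shown binding site.

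None of the 10 genes passed limma's adjusted threshold at any time after DHT. The tested Atf3 probe set was highest at 1 h in both sexes, without passing that threshold, and was higher in females than in males. Junb-i was called higher in females too, but 6 of its 8 male signals were under the background level of their arrays.

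Fos had signals of 504 and 1180.2 on the female vehicle arrays and of 899, 918, 742, 649, 613 and 819 at the 6 DHT times, in order from 1 to 24 h. In males it had 377 and 268 with vehicle and 697, 346, 721, 639, 651 and 637 at the same times. One female vehicle array carried the highest Fos signal of all 16, above every DHT array. In males, 5 of the 6 DHT arrays were above both vehicle arrays and the 3 h array lay between them. The lower male vehicle array was the muscle-rich one. At 1 h the fitted log2 change against vehicle was 0.65 ± 0.40 (standard error; 2 arrays against 4), a 1.57-fold difference with a 95% interval from 0.856- to 2.90-fold, and limma's adjusted p was 0.962. With 15 arrays it was 0.45 ± 0.37 (adjusted p = 0.9998, limma). The 1 h signal was 1.07 times the mean of the vehicle arrays in females and 2.16 times in males, with no test within a sex.

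Fosb had 629 and 537 on the female vehicle arrays and 695, 568.1, 485, 799, 659 and 454 over the 6 times. The male values were 493.01 and 419.7 with vehicle and 641, 507, 531, 674, 641 and 683 after DHT. The male DHT arrays were all above the male vehicle arrays, the lower of which was the muscle-rich array. The share of all tested probe sets with this male pattern was not counted. The female DHT arrays lay on both sides of their vehicle arrays. The largest Fosb difference was at 12 h, 0.50 ± 0.21 on the log2 scale with an unadjusted p of 0.0383 and an adjusted p of 0.934 (limma). With 15 arrays it was 0.41 (unadjusted p = 0.0606, adjusted p = 0.9997, limma).

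Jun, the main partner of Fos, had between 273 and 396 on the 6 female DHT arrays, against 403 and 254 on the female vehicle arrays. The male range after DHT was 256 to 363, against 469 and 269 with vehicle. All female DHT arrays thus lay between the female vehicle arrays, and so did all male ones except that at 12 h. The log2 change at 1 h was -0.07 ± 0.27, and -0.19 ± 0.25 with 15 arrays.

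Junb was read by 2 probe sets that did not run together closely (r = 0.518 over 15 arrays after centring each sex). Junb-r had 719 and 422 on the female vehicle arrays and 411, 536, 454, 566, 925 and 592 over the 6 times. The male values of the same probe set were 370.4 and 209.8 with vehicle and 421, 285, 509, 402, 463 and 356 after DHT. The 18 h female array was the highest of the 16, and both sexes had DHT arrays on either side of a vehicle array. Junb-i had 390.4 and 201 on the female vehicle arrays and 362, 497, 437, 176, 598 and 214 after DHT, and on the male arrays 115 and 56.4 with vehicle and 225, 60.2, 296, 90.6, 94.8 and 73.8 after DHT. On 6 of the 8 male arrays, all but those at 1 h and 6 h, the signal of Junb-i was under the mean level of the antisense control probe sets, a measure of background, and on 0 of the 8 female arrays. Junb-i swung up and down between successive times in both sexes. Its 1 h change was 0.83 ± 0.48 on the log2 scale and its 6 h change 1.15 ± 0.48, with an unadjusted p of 0.0363 at 6 h and an adjusted p of 0.964 (limma). The log2 changes of Junb-r were 0.08 ± 0.33 at 1 h and 0.28 ± 0.33 at 6 h, smaller than those of Junb-i. With 15 arrays the 1 h and 6 h changes were 0.65 ± 0.48 and 0.97 ± 0.48 for Junb-i and -0.13 ± 0.28 and 0.07 ± 0.28 for Junb-r.

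Egr1 had 551 and 674 on the female vehicle arrays and 533, 856, 513, 391, 582 and 824 after DHT. The male values were 505 and 463 with vehicle and 593, 639.8, 644, 597, 622 and 542 after DHT. As for Fosb, the male DHT arrays were all above the male vehicle arrays, the lower of which was the muscle-rich array. The share of all tested probe sets with this pattern was not counted. The female DHT arrays lay on both sides of their vehicle arrays. The 1 h change was 0.05 ± 0.25 on the log2 scale (-0.02 ± 0.25 with 15 arrays), and the largest, at 3 h, was 0.44 ± 0.25 (adjusted p = 0.917, limma; 0.37 ± 0.25 with 15 arrays).

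Atf3 had the smallest unadjusted p of the 10 genes at 1 h. Its tested probe set had 616 and 454 on the female vehicle arrays and 759.9, 568.4, 539, 549, 468 and 515 after DHT, in order of time. On male arrays it had 288 and 331 with vehicle and 435, 281, 283, 329, 302 and 328 after DHT. It was the only one of the 11 probe sets whose 1 h array was the highest of 8 in both sexes, a pattern of 1.53% of all tested, with 1.42 times the vehicle mean in females and 1.40 times in males, and from 3 h on its signal lay within or just under the range of that sex's vehicle arrays. The 1 h change against vehicle was 0.49 ± 0.18 on the log2 scale, a 1.40-fold difference with a 95% interval of 1.07- to 1.85-fold, an unadjusted p of 0.0192 and an adjusted p of 0.962 (limma). Against the 5 later DHT times it was 0.50 ± 0.16 (unadjusted p = 0.00917, adjusted p = 0.9997, limma). With 15 arrays these were 0.53 ± 0.18 (adjusted p = 0.9998, limma) and 0.50 ± 0.15 (adjusted p = 0.652, limma). Neither passed the adjustment over all tested probe sets. Its name ends in f_at, which on these arrays marks probes shared by a family of similar sequences. One of the dim Atf3 probe sets had 119 at 1 h in females, against 29.8 and 70.9 with vehicle, and 35.6 at 1 h in males, the third highest of 8, against 31.4 and 28.8. The other had 8.87 at 1 h in females, against 11.3 and 7.89, and 9.10 at 1 h in males, against 11.1 and 10.3, and was at 0.922 and 0.851 times the vehicle mean.

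Ier2 had between 430.4 and 544 on the female DHT arrays, against 438 and 693 on the female vehicle arrays. The male range after DHT was 399 to 465, against 531 and 307 with vehicle. All DHT arrays but the female 6 h array lay between the vehicle arrays of their sex. The log2 change at 1 h was -0.05 ± 0.25, and -0.23 ± 0.20 with 15 arrays.

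Nr4a1 had 198 and 306 on the female vehicle arrays and 286, 288, 358, 240.1, 302 and 269 after DHT. The male values were 294 and 1723 with vehicle and 379, 349, 123, 230.2, 416 and 307 after DHT. The value of 1723 was on the muscle-rich array and was 5.75 times the mean of the other 7 male arrays. This array also had the lowest male signals of Fos, Fosb, Junb-r, Junb-i, Egr1, Ier2 and Zfp36. Fos was at 0.461 times and Zfp36 at 0.459 times the mean of the other males. The 1 h change was -0.35 ± 0.66 on the log2 scale with 16 arrays and 0.31 ± 0.36 with 15. The part of muscle RNA in these values was not tested.

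Zfp36 had 1037 and 985 on the female vehicle arrays and 994, 1053, 1301, 1241, 1254 and 1052 after DHT. The male arrays had 891 and 504 with vehicle and 1064, 1493, 1267, 1085, 833 and 1046 after DHT. Over the 6 times the mean log2 change was 0.45 ± 0.19 (unadjusted p = 0.0346, adjusted p = 0.625, limma), and at 6 h it was 0.63 ± 0.28 (unadjusted p = 0.0445, adjusted p = 0.964, limma). Without the muscle-rich array, which had the lowest Zfp36 signal of all, the mean change was 0.23 ± 0.14 (unadjusted p = 0.132, adjusted p = 0.9986, limma) and the 6 h change 0.41 ± 0.20 (unadjusted p = 0.0600, adjusted p = 0.999, limma).

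Dusp1 had 2173 and 2719 on the female vehicle arrays and 3596, 2645, 2603, 1995, 2299.5 and 2727 after DHT. On male arrays it had 2302 and 2727 with vehicle and 2654, 1905, 2758, 2149.6, 1894 and 1440.5 after DHT. The female 1 h array was the highest of the 16, and the male 1 h array was the third highest of 8 males, under the muscle-rich vehicle array and the 6 h array. The change at 1 h against vehicle was 0.32 ± 0.24 on the log2 scale, and 0.42 ± 0.21 with 15 arrays. Against the 5 later times it was 0.49 ± 0.22 (unadjusted p = 0.0461, adjusted p = 0.9997, limma), and with 15 arrays 0.49 ± 0.18 (unadjusted p = 0.0186, adjusted p = 0.847, limma).

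**Figure D1:**
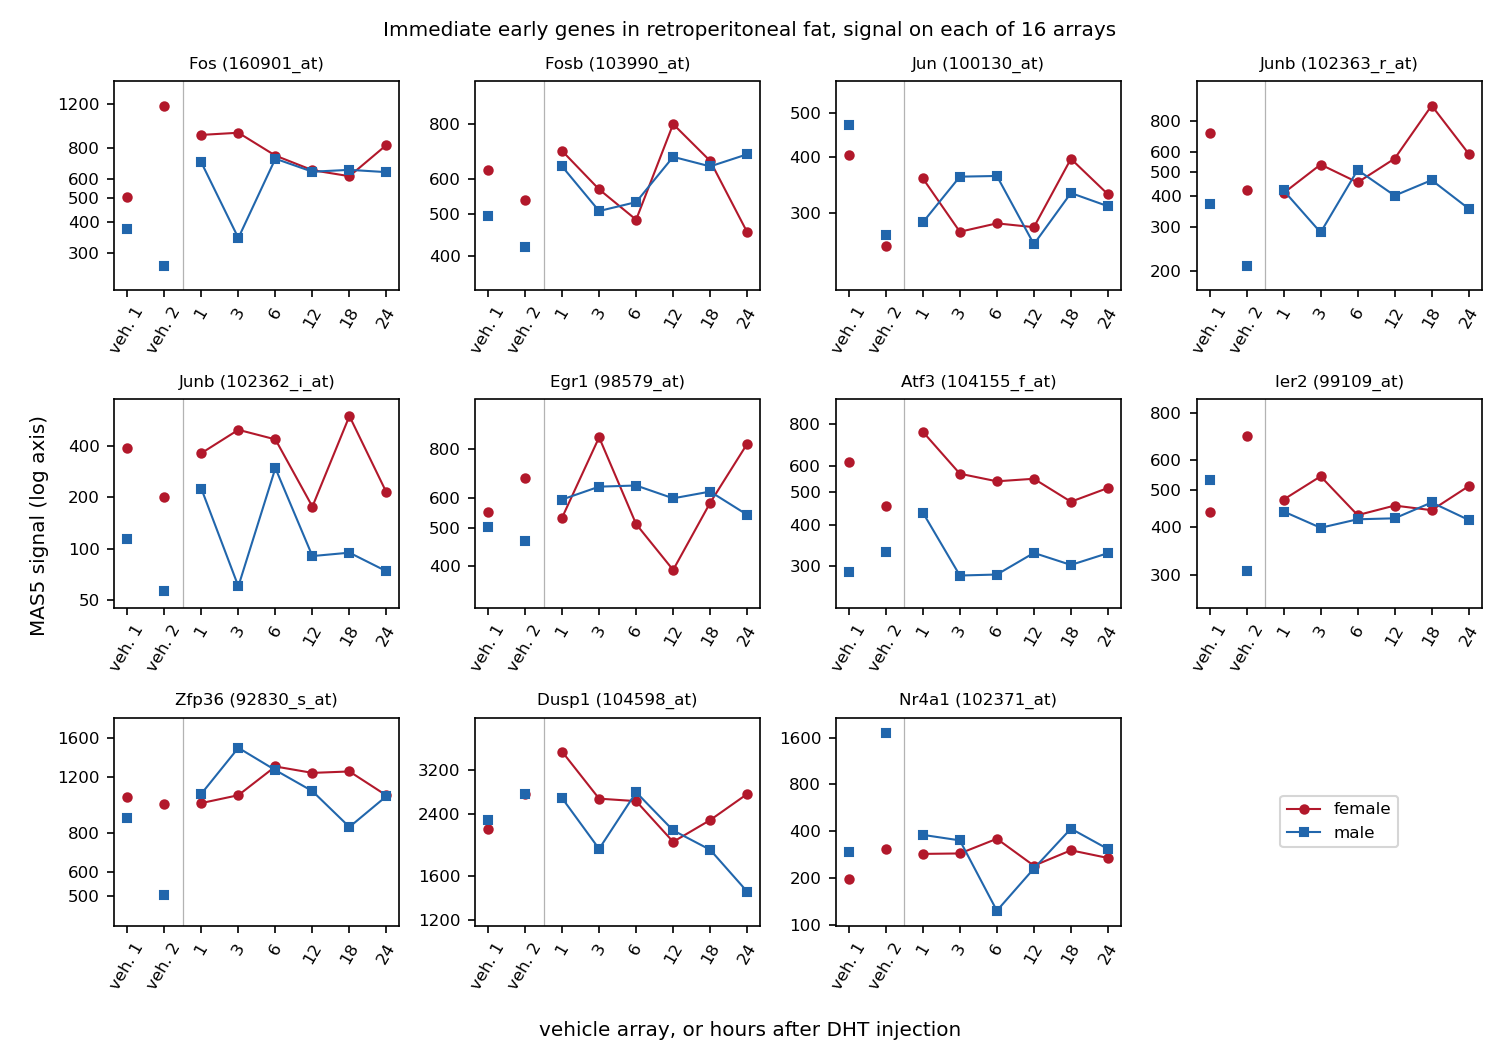
MAS5 signal (log axis) of the 11 tested probe sets on each of the 16 arrays, with the 2 vehicle arrays of a sex at the left and the 6 DHT times joined by lines; red circles are females and blue squares males. Atf3 is highest at 1 h in both sexes (759.9 in females and 435 in males), and Nr4a1 reaches 1723 on the muscle-rich male vehicle array.

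Over all the genes, limma called 0 of the 11 probe sets at 1 h after DHT, where it called 0% of all 7453 tested. At an unadjusted p under 0.05 there were 182 probe sets (2.44%), 1 of them a member. At 3 h it called 0 of 11 against a background of 0.0134%, and 0 members were among the 134 probe sets (1.8%) at an unadjusted p under 0.05. At 6 h it called 0 of 11 against 0.0403%, and 2 members were among 156 unadjusted (2.09%). At 12 h it called 0 of 11 against 0.0403%, and 1 member was among 167 unadjusted (2.24%). At 18 h and 24 h it called 0 of 11 against 0%, and 0 members were among 380 (5.1%) and 194 (2.6%) unadjusted. For the mean of the 6 times it called 0 of 11 against 0.0403%, with 1 member among 392 unadjusted (5.26%). For 1 h against the later DHT times it called 0 of 11 against 0%, with 2 members among 137 unadjusted (1.84%). The F test over the 6 times called 0 of 11 against 0%, with 0 members among 85 unadjusted (1.14%). All comparisons with vehicle share the vehicle arrays and are not independent of each other.

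With 15 arrays limma again called 0 of the 11 in each of these comparisons. The background was 0% at 1 h, 0.0134% at 3 h, 0.0537% at 6 h, 0.0403% at 12 h, 0.0268% at 18 h, 0.0134% at 24 h, 0.0537% for the mean and 0.0671% for both 1 h against later times and the F test. At an unadjusted p under 0.05 there was 1 member among 299 probe sets at 1 h (4.01%) and 2 among 427 for 1 h against later times (5.73%). There were 0 members at 3 h (2.08% of all tested), 6 h (2.72%), 12 h (3.78%), 18 h (6.21%) and 24 h (4.19%), for the mean (3.17%) and for the F test (3.68%). The median log2 change of the 11 at 1 h was 0.315, beside 0.0516 over all tested probe sets, and with 15 arrays 0.275 beside 0.0326. At 3, 6, 12, 18 and 24 h the medians of the 11 with 16 arrays were -0.00561, 0.0799, -0.103, 0.143 and 0.0230, beside 0.0252, 0.0220, 0.0455, 0.0517 and 0.0225 over all tested, and were thus under the background at 3 h and 12 h. With 15 arrays they were -0.0277 at 3 h (beside 0.00135) and -0.147 at 12 h (beside 0.00573). For the mean of the DHT times the medians were 0.140 beside 0.0355, and with 15 arrays 0.108 beside 0.00547. The intervals were wide: at 1 h with 16 arrays the upper 95% bounds were 2.90-fold for Fos, 3.70-fold for Junb-i and 1.51-fold for Egr1, so that a missed threshold does not show that these genes did not respond. The number of arrays, 2 at each time, limits the precision.

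**Figure D2:**
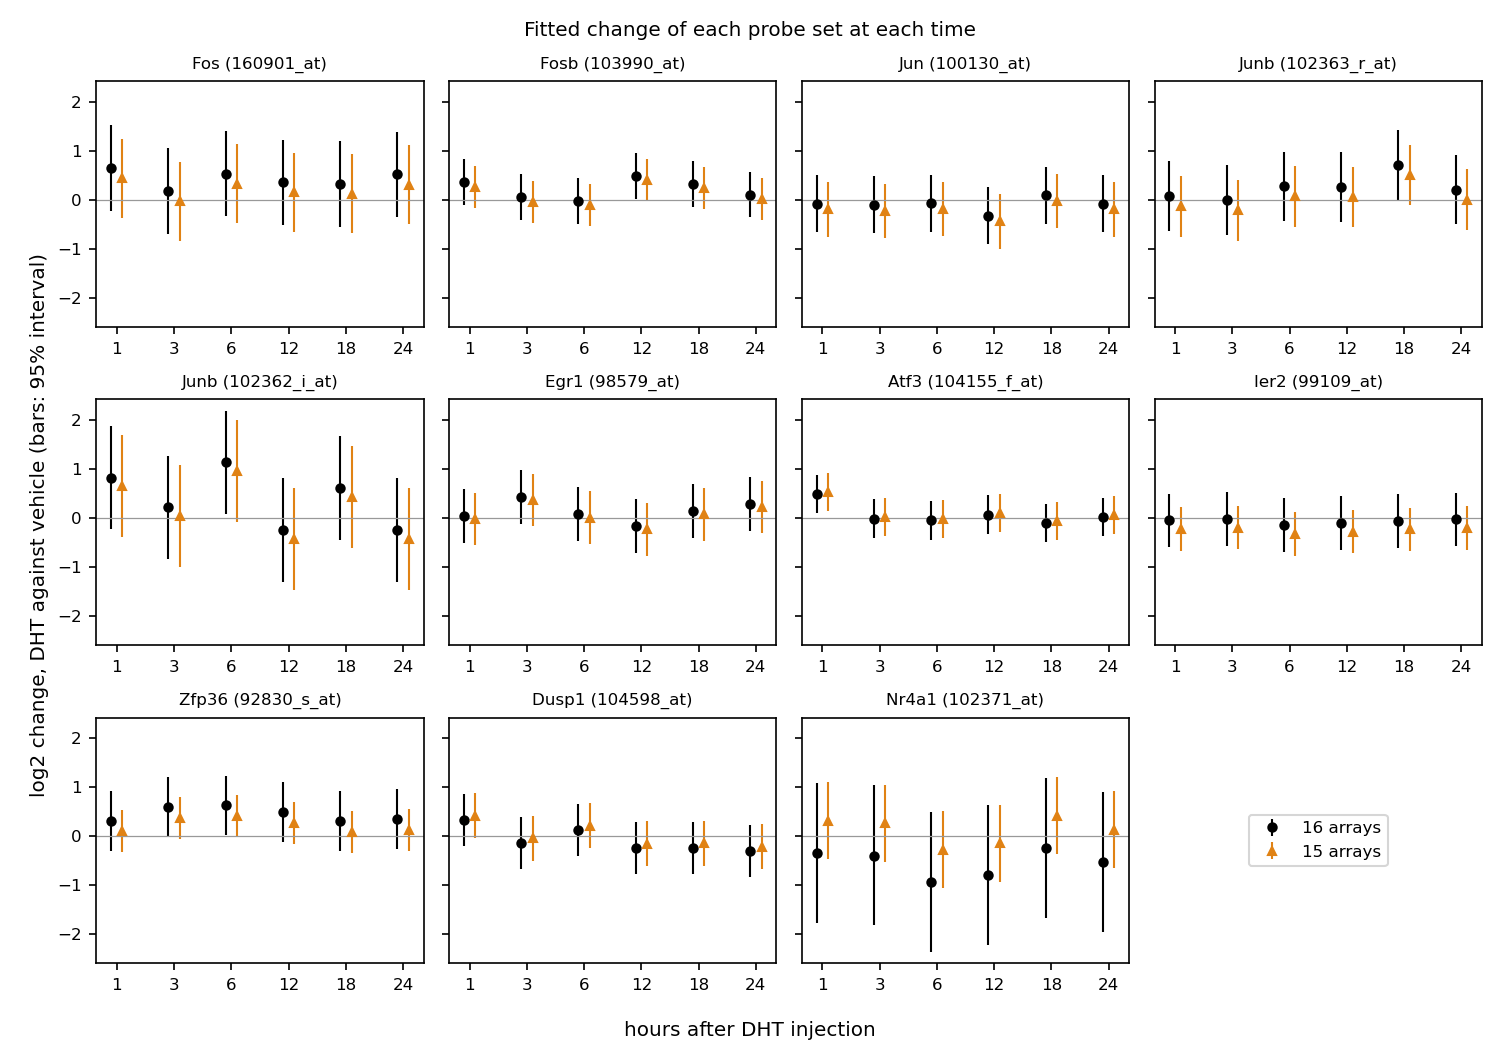
Fitted log2 change of each tested probe set at each of 6 times after DHT against vehicle, with 95% intervals, from 16 arrays (black circles) and from 15 arrays (orange triangles). The Atf3 intervals at 1 h lie above 0 in both fits, and the Nr4a1 values are lower with 16 arrays than with 15.

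**Figure D3:**
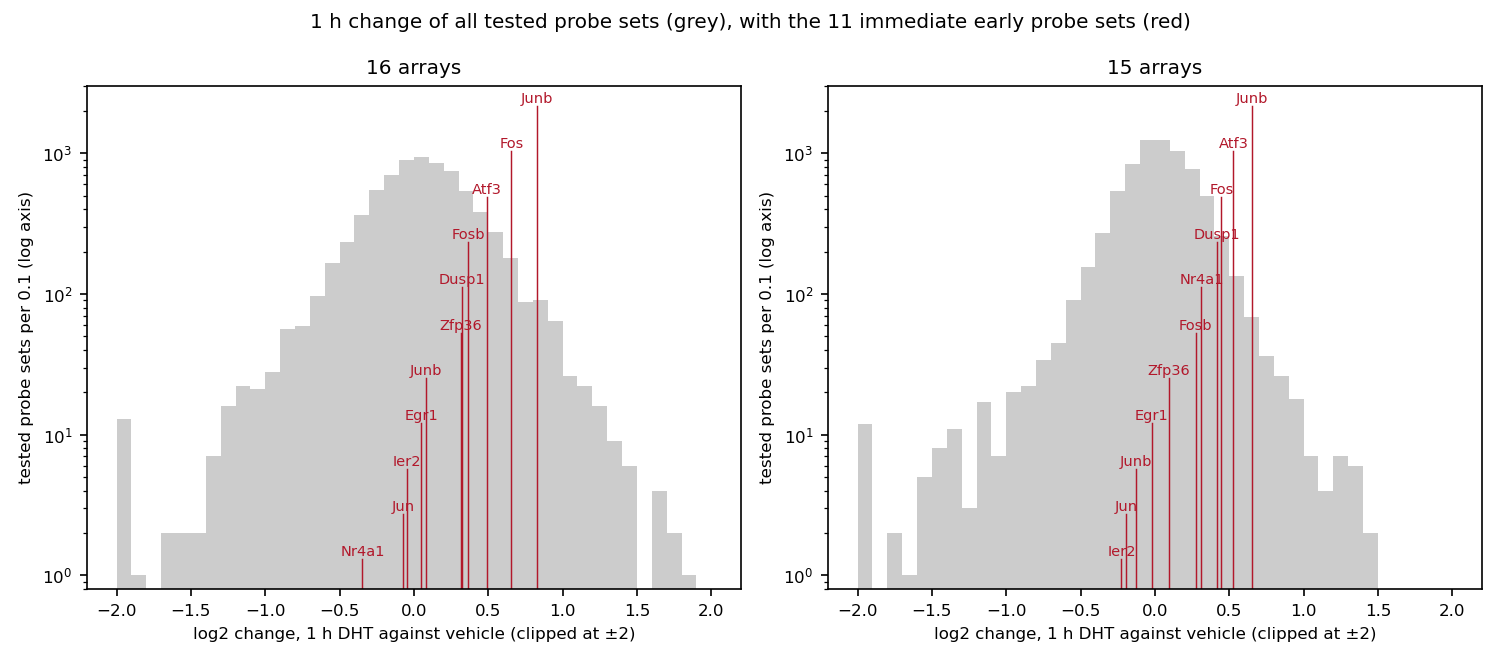
Histogram (log axis) of the log2 change at 1 h of the 7453 tested probe sets in grey, with the 11 immediate early probe sets as labelled red lines of arbitrary height; the left panel uses 16 arrays and the right panel 15. The lines lie between -0.35 (Nr4a1) and 0.83 (Junb-i) in the left panel, inside the grey distribution.

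The antisense control probe sets had mean log2 levels of 6.29 and 6.30 on the 1 h arrays, 6.13 to 7.995 on the other DHT arrays and 6.66 to 7.58 on the vehicle arrays. The 1 h arrays were thus under all vehicle arrays in this measure. With it as a covariate, the Atf3 difference at 1 h against later times was 0.45 on the log2 scale (0.47 with 15 arrays) and that of Dusp1 0.38 (0.43 with 15), while the Fos change at 1 h against vehicle was 0.30 with 16 arrays and -0.18 with 15. Other members did not all move down under the alternatives, this covariate among them. With 16 arrays their 1 h changes against vehicle ran from 0.27 to 0.66 for Zfp36 and from -0.11 to 0.27 for Jun. Those of Junb-r ran from 0.02 to 0.36 and those of Nr4a1 from -0.98 to -0.34. The 3′ to 5′ signal ratio of Gapdh, a measure of RNA integrity, was 0.824 and 0.829 on the 1 h arrays and 0.801 to 0.957 over all arrays.

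Females and males differed in the tested Atf3 probe set, and limma called Junb-i as well. Atf3 averaged 559 ± 96.6 (SD) on 8 female arrays and 322 ± 50.1 on 8 male arrays, and the lowest female array (454) was above the highest male array (435). The difference was 0.76 ± 0.10 on the log2 scale, 1.70-fold, with an adjusted p of 0.00125 (limma), and females were above males at all 6 DHT times. The dim Atf3 probe sets, under the filter and not tested, averaged 66.2 and 10.2 in females and 36.2 and 10.6 in males. In both of these the sexes overlapped. Junb-i averaged 359 ± 152 in females and 126 ± 87.0 in males, with a fitted log2 difference of 1.48 ± 0.28 (adjusted p = 0.00893, limma). Its male mean was under the filter's 127.47, so that it was tested only through the female arrays, and with most male signals under background the size of the difference is not given as a fold. Females were again above males at all 6 times, although the female range of 176 to 598 overlapped the male range of 56.4 to 296. With 15 arrays the differences were 0.78 ± 0.10 for Atf3 (adjusted p = 0.000299) and 1.39 ± 0.27 for Junb-i (adjusted p = 0.00462, limma).

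These were 2 of 11 probe sets called, both higher in females, against a background of 5.82% of all probe sets (4.74% higher and 1.09% lower in females). Among the 7088 probe sets whose mean in each sex reached the filter, 10 members included, 4.98% were called with 16 arrays and 15% with 15, and 1 member (Atf3) in both. With 15 arrays limma called the same 2, against 15.8% (8.91% higher and 6.86% lower). At an unadjusted p under 0.05 there were 4 members among 19.5% of all tested, and with 15 arrays 5 among 28.9%. Neither was called when every combination of sex and time had its own mean, a fit with 2 residual degrees of freedom (adjusted p = 0.419 for Atf3 and 0.244 for Junb-i, limma). Atf3 was the only probe set of the 11 whose sexes did not overlap, as was the case for 4.25% of all tested. Junb-r averaged 578 ± 173 in females and 377 ± 95.9 in males, a difference of 0.59 ± 0.19 with an adjusted p of 0.0983 (limma), and 0.49 with an adjusted p of 0.0634 with 15 arrays. Fos averaged 791 ± 213 in females and 542 ± 180.2 in males, a difference of 0.57 ± 0.23 (adjusted p = 0.201, limma), and 0.46 ± 0.21 with 15 arrays. For the other 7 genes limma's adjusted p lay between 0.425 and 0.945, with log2 differences from -0.35 (Nr4a1) to 0.23 (Dusp1).

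**Figure D4:**
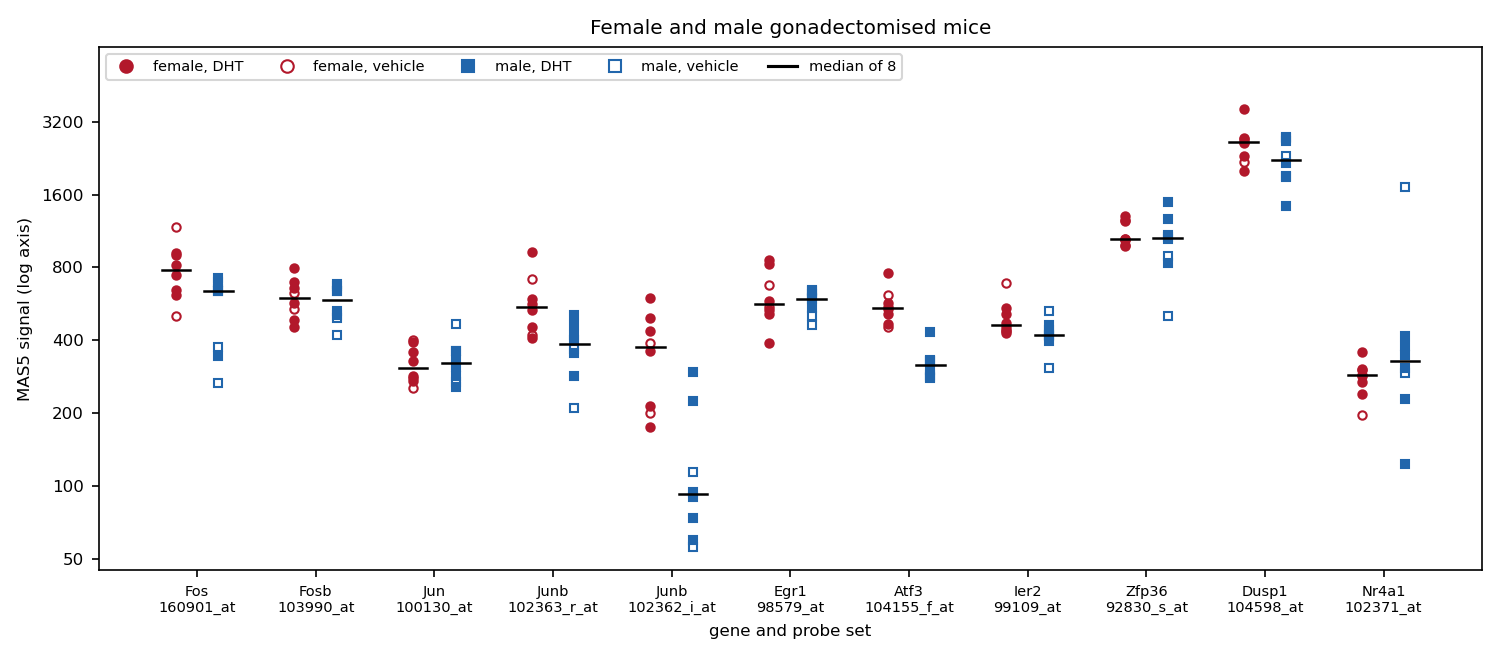
MAS5 signal (log axis) of the 11 tested probe sets on the 8 female arrays (red circles) and the 8 male arrays (blue squares), with vehicle arrays as open symbols and bars at the medians. The female and male symbols of Atf3 do not overlap, as for 4.25% of all tested probe sets, and those of the other 10 probe sets do.

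Cell type markers differed between the sexes as well. The summed signal of the macrophage genes was 34977 to 47312 on the female arrays and 25442 to 32186 on the 7 male arrays other than the muscle-rich one, with 13 of the 13 genes higher on average in females. Neutrophil and mast cell genes were higher on average in females for 6 of 7, with sums of 2896 to 4193 in females and 2393 to 3214 in those males. Muscle sums were 22078 to 54330 in females and 42155 to 73228 in those males, and adipocyte sums 68342 to 89035 and 84097 to 109810.0, with 4 of 19 muscle genes and 0 of 10 adipocyte genes higher on average in females. Of the endothelial genes 4 of 7, of the mesothelial 2 of 6 and of the erythrocyte genes 1 of 3 were higher on average in females, and no marker was at 0. In bulk tissue, fewer cells of a type and less RNA per cell cannot be told apart, and the part of these cells in the differences between the sexes was not tested. The 1 h arrays, on which Atf3 was highest, had the lowest adipocyte sum of the 8 female arrays (68342) and the lowest of the 7 males without the muscle-rich array (84097). Their muscle sums were 47370 in females, the second highest of 8, and 72406 in males, the third highest. The macrophage sum at 1 h was 34977 in females, the lowest of the female arrays, and 29318 in males, the third highest. The neutrophil and mast cell sum at 1 h was the second highest of 8 in both sexes (4119 in females and 3028 in males). That of endothelium was the highest in males (5576) and at rank 6 in females (5532). Mesothelium was at rank 6 in females and 3 in males, and erythrocyte genes at 4 and 7. The part of these cells in the 1 h values was not tested.

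**Figure D5:**
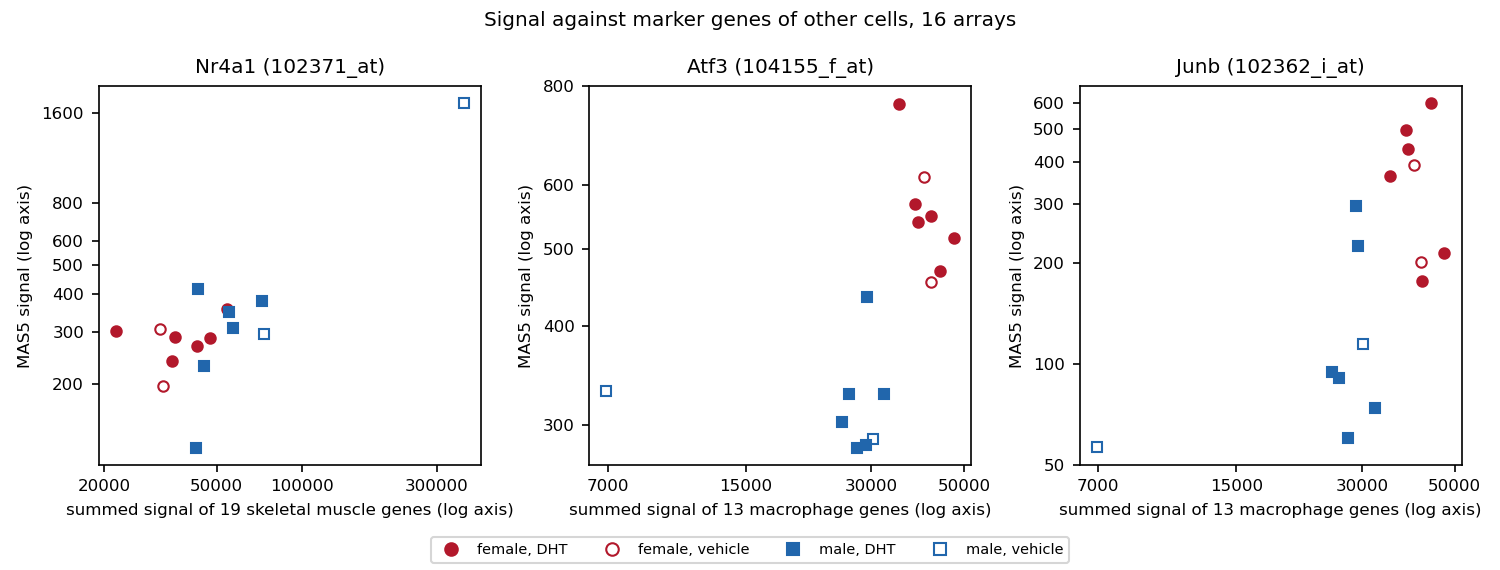
Signal of Nr4a1 against the summed signal of 19 skeletal muscle genes, and of Atf3 and Junb-i against the summed signal of 13 macrophage genes, on 16 arrays with log axes; red circles are females, blue squares males, open symbols vehicle. The muscle-rich array is the far right point of the first panel, with a muscle sum of 372560.0 and a Nr4a1 signal of 1723, and the far left point of the other panels.

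The response to DHT was set against sex in a further model, which called 0 of the 11 probe sets (limma, 0% of all tested, and 0 members among the 6.45% at an unadjusted p under 0.05). With 15 arrays it called 0 of 11 against 0.0268%, with 0 members among the 2.88% unadjusted. The largest terms were those of Nr4a1, 1.52 ± 0.78 (unadjusted p = 0.0771), and Fos, -0.90 ± 0.48 (unadjusted p = 0.0919), in which a positive value means a larger log2 change in females. With 15 arrays they were 0.28 ± 0.55 and -0.66 ± 0.54. Without the first male vehicle array, where the muscle-rich array is the only male control, the terms were 2.76 for Nr4a1 and -0.94 for Zfp36.

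Within each sex, the genes differed in how much they varied from array to array. Over 15 arrays the within-sex SD on the log2 scale was 0.687 for Junb-i, at percentile 96.1 of all tested probe sets, 0.415 for Nr4a1 and 0.401 for Fos, and it was 0.188 for Ier2 and 0.221 for Atf3, beside a median of 0.261 over all tested. Among the 45 pairs the median correlation over the 15 arrays, each centred on its sex, was -0.109, and 17 pairs were above 0. Over all pairs of tested probe sets the median was 0.00192 and 50.2% were above 0. The highest was 0.454, of Fosb with Atf3, followed by 0.424 of Fos with Ier2 and 0.396 of Fos with Dusp1, and the lowest was -0.661, of Fos with Jun. No pair reached 0.5, where 9.93% of all pairs of tested probe sets did. These correlations are descriptions over 15 arrays that share their scaling.

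The genes whose pattern was most like the mean of the 10 over the same 15 arrays were Ak3 (r = 0.866), Smc6 (0.850), Mtm1 (0.831), Mettl5 (0.794) and Utrn (0.759). The members' own correlations with that mean ran from -0.331 (Zfp36) to 0.649 (Dusp1), so that mean is not a pattern they all share. The genes most like Fos alone were Atp6v1g1 (0.915), Adam9 (0.907), Cetn3 (0.906), Zfp91 (0.900) and Tank (0.897).

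Other genes of the early response were followed in 5 lists. A gene with more than 1 probe set was read only by the one with the highest mean signal. Of the genes named below, Socs3, Dusp6, Atf2, Nras and Errfi1 had 2 probe sets each, and Egfr and Pdgfra had 3. Their other probe sets were not examined. Of 46 other immediate early genes, 38 had a probe set and 31 were tested. limma called 0 of the 31 at 1 h and 0 for the mean of the DHT times, with medians of 0.196 and 0.171 on the log2 scale, beside 0.0516 and 0.0355 over all tested probe sets. With 15 arrays the medians were 0.104 and 0.0510, beside 0.0326 and 0.00547. The 1 h median was not set apart from later times. At 3, 6, 12, 18 and 24 h the medians with 16 arrays were 0.178, 0.236, 0.147, 0.0892 and 0.222. For 1 h against later DHT times the median was 0.0293, beside 0.0348 over all tested. The smallest unadjusted p at 1 h was that of Egr2, a zinc finger relative of Egr1, with a log2 change of 0.51 ± 0.22, an unadjusted p of 0.0387 and an adjusted p of 0.962 (limma). Klf6 (0.80 ± 0.39) and Rgs2 (0.82 ± 0.43) followed. Egr2, Klf6 and Rgs2 were all outside the 3 smallest p at 1 h with 15 arrays. With 15 arrays the smallest at 1 h was that of Jund, an AP-1 protein, at -0.38 ± 0.14 (adjusted p = 0.9998, limma), and for the mean that of Fosl2, another, at 0.74 ± 0.26 (adjusted p = 0.9986, limma). For females against males limma called 5 of the 31 higher in females and 0 lower. These were Egr2 (0.49 ± 0.13), Ier3 (0.48 ± 0.12), Socs3 (1.34 ± 0.23), the cytokine signalling inhibitor, Id2 (0.93 ± 0.23) and Rgs2 (1.08 ± 0.25), all log2 differences. Socs3 averaged 309 ± 79.4 in females and 126 ± 75.0 in males, and like Junb-i it reached the filter only through the females, with 5 of 8 male signals under the antisense level. Rgs2 was under that level on 2 female and 4 male arrays. With 15 arrays 8 were higher, with Ccn2, Dusp6 and Zfp36l1 added (Ccn2 also reached the filter only through the females, with 6 male signals under the antisense level), and 1 lower, Id3 (-0.41 ± 0.09, adjusted p = 0.0107, limma). These shares stand beside the same backgrounds of 5.82% and 15.8%. Among probe sets whose mean in each sex reached the filter, a set without Socs3 and Ccn2, the backgrounds were 4.98% and 15%. The list was not counted again without these genes.

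Of 20 AP-1 and CREB partners 16 had a probe set and 12 were tested, and limma called 0 at 1 h, 0 for the mean and 0 between the sexes. Maf had the smallest unadjusted p for the mean, 0.0226, at -1.07 ± 0.41 (-0.49 ± 0.27 with 15 arrays). With 15 arrays Atf2 was higher in females (0.47 ± 0.14, adjusted p = 0.0394, limma). Of 26 upstream kinases, receptors and serum response factors 19 had a probe set and 15 were tested, and limma called 0 for either DHT comparison, with Egfr at 0.49 ± 0.17 for the mean (adjusted p = 0.625), and 2 higher in females, Elk3 (0.65 ± 0.16) and Pdgfrb (0.49 ± 0.12). With 15 arrays Map2k4, Nras and Pdgfra were also higher, and Prkaca was lower (-0.38 ± 0.09). Of 15 heat shock genes 13 had a probe set and 12 were tested. limma called 0 of them for DHT, and the smallest p at 1 h with 15 arrays was that of Hspa1a, 0.84 ± 0.29 (unadjusted p = 0.0126, adjusted p = 0.9998, limma). With 16 arrays Hspa1a was at 0.54 ± 0.37 (unadjusted p = 0.177, limma). There Hspa1b had the smallest p, at 0.53 ± 0.24 (unadjusted p = 0.0492, adjusted p = 0.962, limma). Hspa5 was higher in females with 15 arrays (0.46 ± 0.11). For all these calls between the sexes the background was 5.82% of all tested probe sets with 16 arrays and 15.8% with 15.

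Of 17 inhibitors of kinase signalling, the phosphatases and feedback proteins, 8 had a probe set and 7 were tested. With 16 arrays limma called 0 of the 7 at 1 h, 0 for the mean and 0 between the sexes, and with 15 arrays 1 for the mean (Errfi1) and 1 higher in females (Dusp6, 0.37 ± 0.10). The background with 15 arrays was 0.0537% of all tested probe sets for the mean and 15.8% between the sexes. Errfi1 encodes an inhibitor of the epidermal growth factor receptor. Its mean change over the 6 DHT times was 0.79 ± 0.12 on the log2 scale with an adjusted p of 0.0632 with 16 arrays, and 0.73 ± 0.11 with an adjusted p of 0.0436 with 15 (limma). With 15 arrays it was the only gene of the 5 lists called for that comparison. At 1 h its change was 0.99 ± 0.18 with 16 arrays (unadjusted p = 0.000166, adjusted p = 0.618, limma). Ptpn1, a tyrosine phosphatase, was at 0.77 ± 0.35 at 1 h (adjusted p = 0.962) and 0.53 ± 0.28 with 15 arrays (adjusted p = 0.9998, limma).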

How the data were processed

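Each probe set has 1 deposited signal intensity per array, on a linear scale. The submitters' processing notes name MAS5, with no version given in the sources used here. Each array has a mean signal of 500 after trimming 2% at each end, so levels are relative to the whole array. Signals were analysed as log2(signal + 16), which understates changes of dim genes. Of 12488 probe sets, 66 controls were left out, and the 7453 at or above the 40th percentile of mean signal were fitted with limma 3.58.1 (R 4.3.3; lmFit, eBayes with trend) with sex and time as factors, which leaves 8 residual degrees of freedom (7 with 15 arrays or with the sex by DHT term). Of the 8, 2 come from the pairs of vehicle arrays, and the rest are differences between the sexes in their change at the same time. All tests were two-sided, with Benjamini-Hochberg adjustment over all 7453 and a threshold of 0.05. The fit was tested on simulated data. The 15-array fit leaves out the second male vehicle array. Members and gene lists were chosen with earlier results of these data known. List genes were named when called, and otherwise as the up to 3 smallest p at 1 h and for the mean of the DHT times. Probe sets were named through the platform annotation (11251 listed, 10855 with 1 symbol). Replicate numbers follow accession order and pair nothing. Alternatives were the pseudocount, the filter, 1 probe set per gene, the trend, quantile normalization, the antisense control level as a covariate, its own mean for every sex and time, and leaving out each array.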

Additional observations from a re-analysis of the deposited data

Results flagged for a closer look

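Of 33 groups of arrays tested for an outlying array, 5 held one. The rule flags about 1 in 20 groups of true replicates. That rate does not apply here, because the groups share the same 16 arrays. The DHT groups also hold 6 different times, and the vehicle groups both sexes. In females the Atf3 signal at 1 h, 759.9, stood above the other 5 DHT arrays (468 to 568.4). In males the Atf3 signal at 1 h, 434.6, likewise stood above the others (281 to 329). The Fos signal of the male 3 h array, 345.9, was under the other male DHT arrays (637 to 721). The Junb-r signal of the female 18 h array, 924.8, was above the other female DHT arrays (411 to 592). Among the vehicle arrays the Nr4a1 signal of 1723 on the muscle-rich male array stood above the other 3 (198 to 306).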

How the results depend on the processing

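Members called for DHT stayed at 0 in each time, the mean, 1 h against later times and the F test under the alternatives named under the processing, with 0 to 0 on leaving out an array. The count of 2 for females against males became 0 with its own mean for every combination of sex and time, which leaves 2 residual degrees of freedom. There Atf3 was 0.76 (adjusted p = 0.419) and Junb-i 1.46 (adjusted p = 0.244, limma). With 1 probe set per gene the count was 1, because that fit kept the brighter Junb-r and did not test Junb-i. On leaving out any 1 array it was 2 to 2. The sex by DHT count of 0 held on leaving out an array, except without the first male vehicle array. That fit leaves the muscle-rich array as the lone male control, and its terms were -0.94 for Zfp36 and 2.76 for Nr4a1. The share of all tested probe sets called in it was not counted. Among settings chosen after seeing the data, Junb-r passed for females against males with 15 arrays and the antisense level as a covariate (0.54, adjusted p = 0.0367, limma) and, besides the muscle-rich array, without the male 6 h (0.59), second female vehicle (0.54) or female 6 h array (0.59). Of 870 single values under the alternatives other than leaving out an array, 868 kept their side of the threshold and 17 uncalled values changed sign; on leaving out an array these were 1758 of 1760 and 102. No paired analysis was possible because the labels give no replicate number shared between groups, and each DHT time has 1 array per sex.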
